A study of Mus musculus with 6 samples.

Results

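Mouse chromosome 11 carries many genes and was covered less by lamina-associated domains (LADs) than any other autosome in these maps. The chromosome was described through 1187 of the 25588 bins of 100 kb that had at least 50% of their length covered by measured fragments, in coordinates of the mm9 build. A further 2 bins of chromosome 11 fell under that limit and were left out. Its LADs numbered 86 of 1768 in the LmnA RNAi map, 85 of 1807 in the LmnC RNAi map and 83 of 1764 in the LmnB1 RNAi map. Of the 6414976 measured fragments, 295446 lay on chromosome 11, over a span of 118.8 Mb. The chromosome was selected on its low LAD share and low bin signal in these maps, so those values are given as a description with no test. The label of a gene-rich chromosome was checked by gene count. RefSeq places 1609 protein-coding genes on chromosome 11 in the GRCm38.p6 assembly, and only 2 of the 19 autosomes hold more, while its span ranked 8th from the shortest.

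LADs are long stretches of chromatin that touch the nuclear lamina, the mesh of lamin filaments under the inner nuclear membrane. They are typically poor in genes, late replicating and weakly transcribed, and the sequence between them holds most active genes. LmnA and LmnC are splice products of 1 gene, and LmnB1 is a separate, membrane-anchored lamin. In DamID, a bacterial adenine methyltransferase (Dam) fused to a lamin marks GATC sites near the lamina, and Dam alone records how open each site is.

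All cells were mouse embryonic fibroblasts of the C57BL/6 strain with a wild-type genotype. They carried lentiviral shRNA, were selected with puromycin and then received Dam alone or a Dam fusion by lentivirus. The LmnA RNAi and the LmnC RNAi maps each came from 1 Dam-LmnB1 and 1 Dam-only library, and the LmnB1 RNAi map came from 1 Dam-LmnA and 1 Dam-only library. Only LmnA and LmnC are listed as shRNA targets in the protocol, and LmnB1 as a target comes from the sample descriptions. In the LmnB1 RNAi map the lamin depleted and the lamin fused to Dam both differ from the other maps, so their parts cannot be told apart. Each group held 1 library, so no p-value could be given, and every difference is one between these maps. Depletion of the lamins was not measured here, and a map without shRNA was not analysed here.

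Signal is the deposited log2 ratio of fusion over Dam-only reads per fragment, averaged over fragment length. Depth per library is unknown, since the deposited values are ratios. Reads could be recovered only for fragments read in a single library. On chromosome 11 these held 118352 fusion and 95254 Dam-only reads in the LmnA RNAi map. The LmnC RNAi map had 73896 fusion and 159513 Dam-only reads, and the LmnB1 RNAi map 76052 and 112339. Such fragments have extreme ratios, since only 1e-05 was added to each count, and values without them are given where they bear on a result. Standard errors (SE) cover the spread over fragments within a map and not the spread between cultures.

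LADs covered 53.2% of the fragment length of chromosome 11 after LmnA RNAi, 46.2% in the LmnC RNAi map and 46.4% in the LmnB1 RNAi map. The share was the lowest of the 19 autosomes in each map. Chromosome 19 came next, with 59.4%, 53.1% and 51.8% in the same maps, and chromosome 14 was highest, with 73.7%, 62.9% and 65.1%. Sequence that was LAD in all 3 maps made up 42.1% of chromosome 11, against 48.4% to 59.6% of the other autosomes. Sequence that was in no LAD of any map made up 44.2%, against 23.9% to 37.7%. The chromosome therefore had the smallest constant LAD part and the largest constant inter-LAD part among the autosomes.

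**Figure D1:**
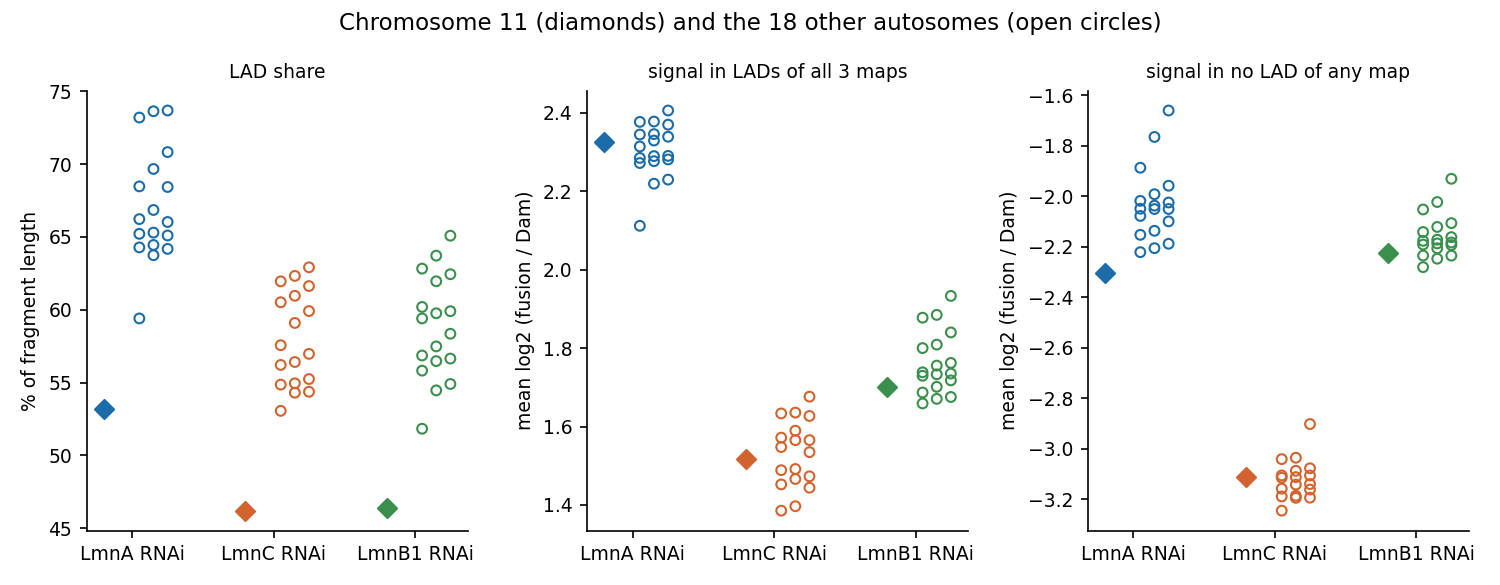
LAD share (left, % of fragment length), mean log2 signal in LADs of all 3 maps (middle) and mean log2 signal in sequence outside every LAD (right), with filled diamonds for chromosome 11 and open circles for each of the 18 other autosomes, by map. Axes do not start at 0. The diamonds for LAD share, at 53.2%, 46.2% and 46.4%, lie below every circle, while the diamonds for signal in shared LADs, at 2.33, 1.52 and 1.70, lie among the circles.

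Along the chromosome, the LADs and the gaps between them changed order from the centromere-proximal to the distal side. The first 3.60 Mb of measured sequence, from 3002122 to 6600348, held no LAD in any map. A run of dense LADs followed, and all 4 blocks of at least 2 Mb that were LAD in every map lay in it. These were chr11:12350155-16381240 (4.03 Mb), chr11:24331158-26443890 (2.11 Mb), chr11:36665383-40190610 (3.53 Mb) and chr11:40620576-42935292 (2.31 Mb). Beyond 42.9 Mb no shared LAD block reached 2 Mb in the lists as deposited. The number of such blocks was 7 with LADs under 50 kb apart merged and 6 with blocks under 100 kb absorbed. Long LAD-free blocks lay mostly past 60 Mb, since 7 of the 8 blocks of at least 2 Mb outside every LAD started there. The first of these 7, from 60510718 to 62772270, started before the midpoint of the span at 62.4 Mb.

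The long shared LAD blocks all had positive signal. The 4.03 Mb block had a mean log2 signal of 2.41 ± 0.06 after LmnA RNAi, 1.91 ± 0.05 in the LmnC RNAi map and 2.10 ± 0.05 in the LmnB1 RNAi map (SE over 10691 fragments). In it, 2383, 2115 and 2225 fragments were read in the fusion library alone, and 515, 543 and 539 in the Dam-only library alone, in the same map order. Across the other 3 blocks the signal ran from 2.46 to 2.63 after LmnA RNAi, from 1.76 to 2.08 in the LmnC RNAi map and from 1.80 to 2.32 in the LmnB1 RNAi map. In the LmnB1 RNAi map the block from 36665383 exceeded that from 24331158 by more than their SE, with 2.32 ± 0.06 against 1.80 ± 0.06.

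The longest stretch without a LAD, chr11:74328450-80626577, spanned 6.30 Mb and had a mean log2 signal of -2.61 ± 0.04 after LmnA RNAi, -3.39 ± 0.05 in the LmnC RNAi map and -2.39 ± 0.04 in the LmnB1 RNAi map. It held 811, 559 and 705 fusion-only fragments and 2958, 3900 and 3265 Dam-only fragments in those maps. The other LAD-free blocks past 60 Mb were chr11:60510718-62772270 (2.26 Mb), chr11:67778308-70834613 (3.06 Mb), chr11:94725018-98329451 (3.60 Mb), chr11:100150850-103274900 (3.12 Mb), chr11:115012728-118314143 (3.30 Mb) and chr11:118858796-120877683 (2.02 Mb). Together the 8 long LAD-free blocks held 27.3 Mb and the 4 long shared LADs 11.98 Mb. The block that starts at 100150850 had the lowest signal after LmnA RNAi, at -2.83, and had -3.39 in the LmnC RNAi map, like the longest block, and -2.27 in the LmnB1 RNAi map. Without single-library fragments it had -1.51 after LmnA RNAi, and the block that starts at 118858796 was lower, at -1.57. The block that starts at 60510718 was the least negative of the 8, with -1.93, -2.70 and -1.90. None of the 8 LAD-free blocks had a mean above 0 in any map.

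**Figure D2:**
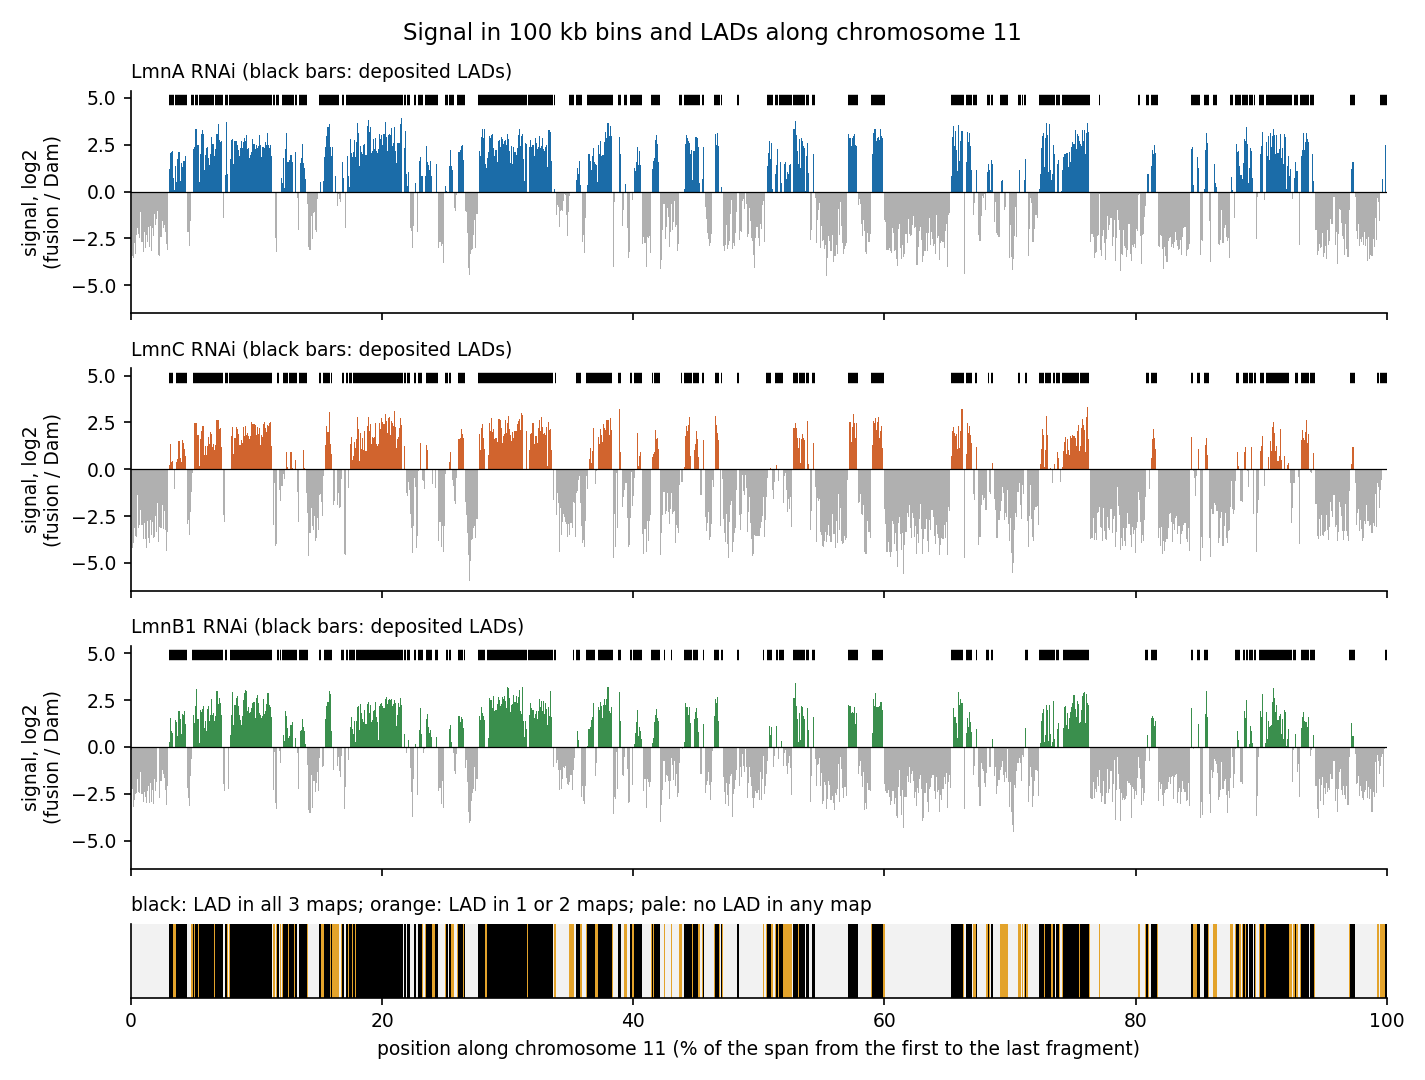
Log2 signal of fusion over Dam-only reads in 100 kb bins (coloured above 0, grey below) and deposited LADs (black bars) along chromosome 11 for each map, with position as a percentage of the measured span of 118.8 Mb. The bottom strip shows sequence in LADs of all 3 maps in black, of 1 or 2 maps in orange and of none in a pale shade. Long black blocks stand on the left and most long pale blocks on the right, the longest being 6.30 Mb.

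LAD share over windows of 10 Mb varied along the chromosome. It was highest in the window from 10 to 20 Mb, with 85.6% after LmnA RNAi, 81.9% in the LmnC RNAi map and 84.9% in the LmnB1 RNAi map. From 20 to 50 Mb it ran from 69.4% to 79.8%, from 62.2% to 68.2% and from 59.4% to 68.6% in the same maps. The window from 70 to 80 Mb had the lowest share of any whole window, at 22.7%, 21.4% and 19.4%. Between 80 and 120 Mb the share lay between 40.4% and 50.9% after LmnA RNAi, between 25.2% and 45.0% in the LmnC RNAi map, and between 27.5% and 48.4% in the LmnB1 RNAi map. Not every proximal window was dense, since the first 10 Mb had 39.4%, 37.5% and 41.8% and the window from 50 to 60 Mb had 45.6%, 39.2% and 40.7%. The window from 60 to 70 Mb had 37.9%, 28.9% and 31.6%, and that from 100 to 110 Mb had 40.4%, 25.2% and 27.5%, so low shares were not confined to the stretch before 80 Mb.

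**Figure D3:**
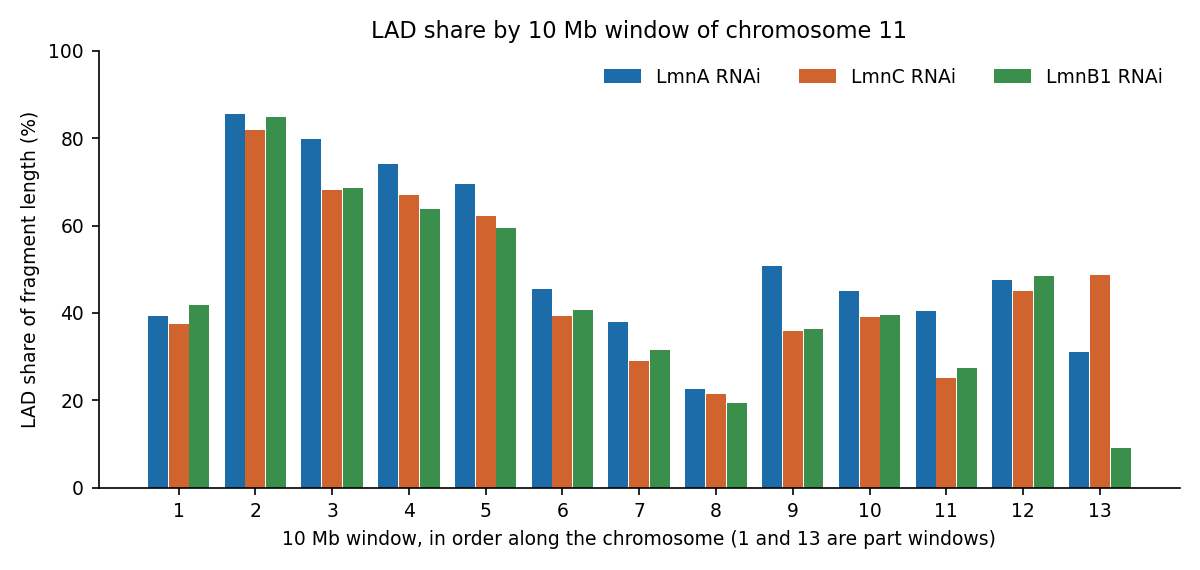
LAD share of fragment length (%, axis from 0) in 10 Mb windows of chromosome 11 in order, for LmnA RNAi, LmnC RNAi and LmnB1 RNAi. The second window reaches 85.6%, 81.9% and 84.9%, and the eighth is at 22.7%, 21.4% and 19.4%. The first window starts at the first fragment and the last holds only 1.83 Mb of fragments.

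On the proximal side of the midpoint at 62.4 Mb, LADs covered 64.5%, 58.2% and 58.6% after LmnA, LmnC and LmnB1 RNAi, and on the distal side 41.8%, 34.2% and 34.2%. The difference was 22.7, 24.1 and 24.4 percentage points. It was the largest of the 19 autosomes after LmnC and LmnB1 RNAi, where the others ran from -16.8 to 18.7 and from -19.1 to 22.4 points. After LmnA RNAi chromosome 15 was higher, at 23.7 points. Distal coverage was the lowest of all autosomes in each map, whereas proximal coverage ranked 5th, 7th and 6th from the lowest. The low total therefore lay mainly in the distal sequence.

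The 2 sides held similar numbers of LADs, 44 against 42 after LmnA RNAi, 45 against 40 in the LmnC RNAi map and 46 against 37 in the LmnB1 RNAi map. Total LAD length was 38.4 Mb proximally and 24.8 Mb distally after LmnA RNAi, 34.6 and 20.3 Mb in the LmnC RNAi map, and 34.8 and 20.3 Mb in the LmnB1 RNAi map. The sides differed in their longest LADs, with 4.69, 4.69 and 4.05 Mb proximally and 2.60, 1.92 and 2.52 Mb distally. Median LAD signal did not follow the share. It was 1.57 proximally and 1.71 distally after LmnA RNAi, 0.96 and 1.03 in the LmnC RNAi map, and 1.13 and 1.25 in the LmnB1 RNAi map.

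LADs on chromosome 11 were not rare, but their median length was low. LADs per 100 Mb came to 72.4 in the LmnA RNAi map, 71.5 in the LmnC RNAi map and 69.8 in the LmnB1 RNAi map, which ranked 14th, 11th and 13th from the lowest of the 19 autosomes. Median LAD length was 434, 352 and 325 kb, which ranked second, second and lowest. Without LADs under 200 kb the medians were 497, 465 and 509 kb, and the ranks were not recomputed. The longest LADs were chr11:23398838-28091956 (4.69 Mb) after LmnA RNAi, chr11:24013520-28705168 (4.69 Mb) in the LmnC RNAi map and chr11:12350155-16396375 (4.05 Mb) in the LmnB1 RNAi map. The shortest were 107, 100.3 and 104 kb. The 19, 11 and 14 LADs that reached 1 Mb held 58.6%, 49.5% and 55.0% of LAD length.

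Gaps between LADs had a median length of 204, 243 and 308 kb, and the longest were 6.30, 6.39 and 6.46 Mb. Gaps of at least 1 Mb numbered 15, 17 and 16, and they held 67.7%, 69.8% and 67.8% of the sequence between LADs. That share was the highest of the 19 autosomes after LmnA RNAi, where the others ran from 36.6% to 65.1%. It ranked 18th and 16th after LmnC and LmnB1 RNAi. A few wide gaps thus held about the same large share of inter-LAD sequence in each map.

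Read in order with all 3 LAD lists, the chromosome split into 497 blocks. Of these, 97 were LAD in every map (50.05 Mb, median 300.2 kb) and 82 were LAD in none (52.5 Mb, median 207 kb). LADs of the LmnA RNAi map alone made 69 blocks of 7.18 Mb, those of the LmnC RNAi map alone 36 blocks of 0.724 Mb and those of the LmnB1 RNAi map alone 44 blocks of 1.59 Mb. LADs of LmnA and LmnC RNAi without LmnB1 RNAi made 64 blocks (3.34 Mb), LmnA and LmnB1 RNAi without LmnC RNAi 66 blocks (2.62 Mb), and LmnC and LmnB1 RNAi without LmnA RNAi 39 blocks (0.818 Mb). Each class of 1 or 2 maps had a share of fragment length within the range of the other autosomes. The share was 6.05% for LmnA RNAi alone, against 4.12% to 12.14%. It was 0.610% for LmnC RNAi alone, against 0.325% to 1.89%, and 1.34% for LmnB1 RNAi alone, against 0.384% to 1.37%. Most of the blocks that differed were narrow, and only 21, 1 and 5 of those found in a single map reached 100 kb. Of the 194 sides of shared LAD blocks, 75 met sequence that was LAD after LmnA and LmnB1 RNAi, 69 met LmnA and LmnC RNAi, 46 met LmnC and LmnB1 RNAi and 1 met sequence in no LAD directly. A shared block ends where any of the 3 lists ends, so unless borders coincide it meets sequence that is LAD in 2 maps. The rarity of direct contact with LAD-free sequence is therefore not a finding. Side counts for the other autosomes are not given here.

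Joining overlapping LADs of the maps gave 81 domains with a median length of 434 kb. Of these, 65 held LADs of all 3 maps, 3 of a pair of maps and 13 of a single map, namely 8 of LmnA RNAi, 1 of LmnC RNAi and 4 of LmnB1 RNAi. The single-map domains were short, with a median of 181 kb, against 545 kb for those found in every map. In 18 of the 65, the shared core came in more than 1 piece. LADs without any overlapping LAD in the other map numbered 9 of 86 for LmnA against LmnC RNAi, 11 of 86 for LmnA against LmnB1 RNAi and 3 of 85 for LmnC against LmnB1 RNAi. In the opposite direction, the LmnC RNAi map had 1 of 85 LADs without a LmnA RNAi counterpart, and the LmnB1 RNAi map had 4 of 83 without LmnA RNAi and 5 of 83 without LmnC RNAi counterparts. Unmatched LADs and single-map domains of the other autosomes are not given here, so no count is read as particular to chromosome 11.

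Bin signal on chromosome 11 had a median of 0.18 after LmnA RNAi, -1.06 in the LmnC RNAi map and -0.55 in the LmnB1 RNAi map, against 1.25, 0.11 and 0.58 on the other autosomes. The lowest and highest bins were -4.50 and 3.94, -5.95 and 3.33, and -4.52 and 3.44 in the same maps. Bins above 0 numbered 612 (51.6%), 481 (40.5%) and 531 (44.7%), against 65.8%, 51.2% and 57.3% on the other autosomes. Without single-library fragments the medians were -0.19, -0.61 and -0.44, so the median after LmnA RNAi lay below 0 there. Signal was above 0 in all 3 maps in 475 bins (40.0%) and in none in 569 bins (47.9%). It was above 0 after LmnA RNAi alone in 81 bins (6.82%). Joint counts for the other autosomes are not given here, so none is read as particular to chromosome 11.

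**Figure D4:**
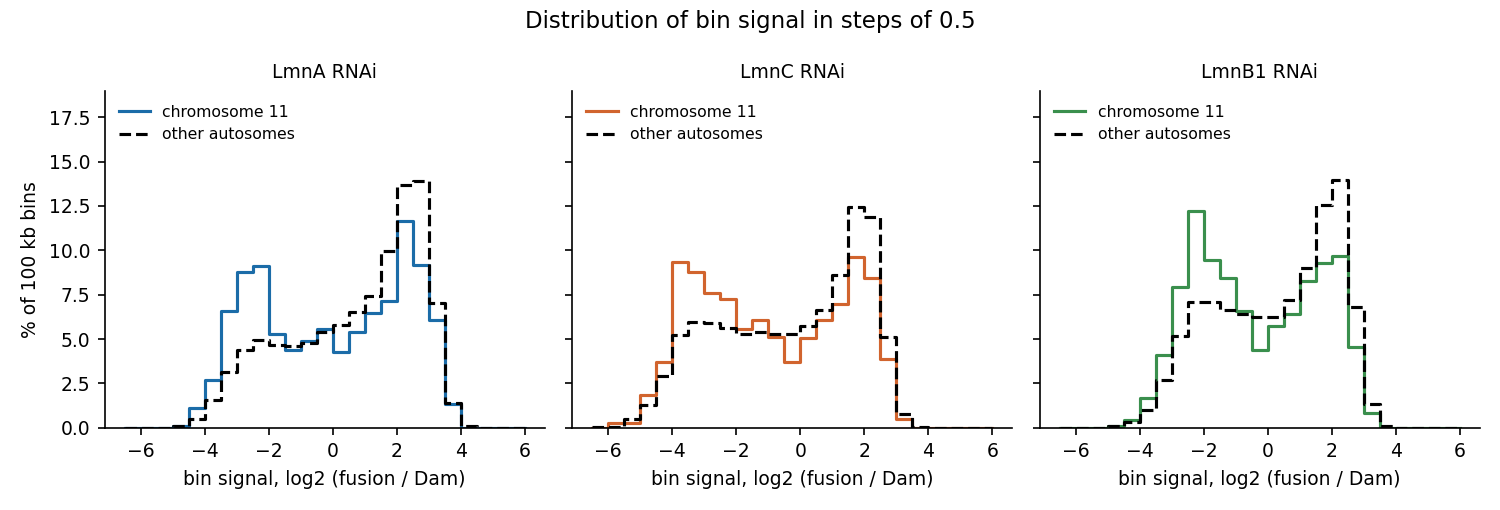
Percentage of 100 kb bins by log2 signal, in steps of 0.5, for chromosome 11 (solid) and the other autosomes (dashed) in each map. Chromosome 11 had 28.3%, 39.0% and 26.5% of its bins below -2 after LmnA, LmnC and LmnB1 RNAi, against 14.7%, 27.5% and 16.4% on the other autosomes.

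In shared LADs and outside every LAD, the level of signal lay within the range of the other autosomes, except outside LADs in the LmnA RNAi map. In LADs shared by all maps it averaged 2.33 ± 0.01 after LmnA RNAi, 1.52 ± 0.01 in the LmnC RNAi map and 1.70 ± 0.01 in the LmnB1 RNAi map (SE over 127579 fragments). Those values ranked 11th, 9th and 6th from the lowest of 19, with other autosomes between 2.11 and 2.41, 1.39 and 1.68, and 1.66 and 1.93. Outside every LAD it averaged -2.30 ± 0.01, -3.11 ± 0.02 and -2.22 ± 0.01 (SE over 128291 fragments). The value after LmnA RNAi was below all other autosomes, which ran from -2.22 to -1.66, while those after LmnC and LmnB1 RNAi ranked 12th and 5th. Without single-library fragments the same classes averaged 0.99, 0.69 and 0.64 inside and -1.38, -1.48 and -1.14 outside. LADs are taken to have been called from this signal, though the calling is not described, so the contrast between the classes is not a finding.

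The share of sequence in each class and the level within each class can be set apart by arithmetic. After LmnA RNAi the mean over fragment length was 0.02 on chromosome 11, against 0.70 on the other autosomes. With the class shares of chromosome 11 and the class levels of the other autosomes it came to 0.12, and with the levels of chromosome 11 and the shares of the others to 0.63. After LmnC RNAi the means were -0.87 and -0.28, and the mixed values -0.88 with the shares and -0.28 with the levels of chromosome 11. After LmnB1 RNAi they were -0.34 and 0.23, and the mixed values -0.28 and 0.17. In each map, the shares alone gave a shift of -0.58, -0.60 and -0.51, and the levels alone -0.06, 0.01 and -0.07. LADs are taken to have been called from this signal and the chromosome was selected on both quantities, so the split is a description of the selecting values.

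Maps were compared bin by bin, with a difference of more than 0.5 on the log2 scale counted as a call. Between LmnA and LmnC RNAi the median difference was 0.84. The LmnA RNAi map was higher in 855 of 1187 bins (72.0%), against 76.2% of all 25588 bins, and lower in 15 (1.26%), against 0.813%. Between LmnA and LmnB1 RNAi the median was 0.36, with 498 bins (41.95%) higher, against 48.8% of all bins, and 150 (12.6%) lower, against 8.47%. Between LmnC and LmnB1 RNAi it was -0.53, with 50 bins (4.21%) higher, against 4.74%, and 609 (51.3%) lower, against 51.3%. The medians of LmnA minus LmnC and of LmnA minus LmnB1 RNAi both ranked 2nd from the lowest of the 19 autosomes, where the others ran from 0.79 to 1.09 and from 0.36 to 0.60. The median of LmnC minus LmnB1 RNAi ranked 8th. The 3 differences share their maps in pairs and are not independent.

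The direction of these differences depended on scaling. With each map centred on its median bin, the median differences on chromosome 11 were -0.31, -0.31 and -0.05, against -0.20, -0.19 and -0.04 over all bins. Centred in this way, 148 bins (12.5%) were higher after LmnA than after LmnC RNAi, against 16.4% of all bins, and 451 (38.0%) lower, against 32.1%. Centred counts for LmnA against LmnB1 RNAi were 155 (13.1%) higher, against 14.4%, and 477 (40.2%) lower, against 32.9%, and for LmnC against LmnB1 RNAi 225 (18.96%) higher, against 19.9%, and 297 (25.02%) lower, against 24.6%. After quantile normalization 177 bins (14.9%) were higher in the LmnA RNAi map than in the LmnC RNAi map, against 19.4% of all bins, and 327 (27.5%) lower, against 20.4%. For LmnA against LmnB1 RNAi the quantile counts were 243 (20.5%) higher, against 21.9%, and 275 (23.2%) lower, against 21.8%, and for LmnC against LmnB1 RNAi 264 (22.2%) higher, against 17.6%, and 148 (12.5%) lower, against 17.5%. Most bins that were higher after LmnA than after LmnC RNAi as deposited therefore did not pass the threshold once the overall level of the maps was removed. Fusion reads over Dam-only reads in single-library fragments stood at 1.24 after LmnA RNAi, 0.463 in the LmnC RNAi map and 0.677 in the LmnB1 RNAi map, and their part in the differences was not tested. Without those fragments 218 bins (18.4%) were higher after LmnA than after LmnC RNAi, against 21.7% of all bins, and 3 (0.253%) lower, against 0.0743%. For LmnA against LmnB1 RNAi the counts were 175 (14.7%) higher, against 16.2%, and 71 (5.98%) lower, against 2.45%. For LmnC against LmnB1 RNAi they were 2 (0.168%) higher, against 0.625%, and 98 (8.26%) lower, against 9.97%. Bin signal was closely correlated between maps. Pearson's r was 0.956 for LmnA and LmnC, 0.951 for LmnA and LmnB1 and 0.969 for LmnC and LmnB1 RNAi. Spearman's rho was 0.950, 0.947 and 0.963 in the same order. These values are over 1187 bins, which share fragments and base composition. With odd fragments of a bin set against even ones, r between maps was 0.930, 0.925 and 0.945 in the same order, and within the LmnA, LmnC and LmnB1 RNAi maps it was 0.961, 0.961 and 0.957.

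Single bins stood far from the median. The bin from 82600001 to 82700000, outside every LAD, had -2.70 after LmnA RNAi, -1.13 in the LmnC RNAi map and -1.34 in the LmnB1 RNAi map. Its difference of -1.57 between LmnA and LmnC RNAi was the lowest of all 25588 bins, and it was -0.73 without single-library fragments. The bin from 116100001 had -3.59, -2.44 and -1.91 and had the lowest such difference of all bins but 2. At the other end, the bin from 65300001 was LAD after LmnA RNAi alone and had 1.40, -2.11 and -0.51. Its difference from LmnC RNAi was 3.51, and 1.42 without single-library fragments. The bin from 46900001 had 1.46, -0.77 and -1.54, a difference of 2.999 between LmnA and LmnB1 RNAi that ranked 7th from the highest of all bins. These bins were picked for their extreme differences, and no replicate shows how far such values vary between cultures. Within chromosome 11, the bin from 113300001 was highest for LmnC over LmnB1 RNAi, with 0.03 against -1.33. It ranked 14th from the highest of all bins. The bin from 70200001 was lowest on the chromosome, with -3.83 against -1.17, and ranked 35th from the lowest of all bins. Without single-library fragments, LmnC minus LmnB1 RNAi was 0.36 and -0.52 in these bins.

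The longest stretches called LAD in a single map were found after LmnA RNAi. The stretch chr11:85216445-86014191 spanned 798 kb between sequence outside every LAD. Its mean log2 signal was 0.19 ± 0.10 after LmnA RNAi, -1.83 ± 0.11 in the LmnC RNAi map and -1.18 ± 0.10 in the LmnB1 RNAi map. The next, chr11:64758815-65525520 (767 kb), had 1.13 ± 0.10, -1.39 ± 0.10 and -0.91 ± 0.09. The stretch chr11:44440340-44834958 (395 kb) was LAD in the LmnA RNAi list though its mean was -0.23 ± 0.14, against -2.98 ± 0.17 and -2.02 ± 0.16 in the other maps. In all 5 of the longest such stretches, which also include chr11:22045338-22734263 (689 kb) and chr11:105376525-105791657 (415 kb), signal was highest after LmnA RNAi and lowest after LmnC RNAi. Without single-library fragments the means after LmnA RNAi were -0.26, 0.36, -0.13, 0.01 and -0.56, from the longest of the 5 down. The maps kept the same order there. The LAD list and the higher signal belong to the same map, so this order is a description. Median bin signal over the whole chromosome had the same order, with 0.18 after LmnA, -0.55 after LmnB1 and -1.06 after LmnC RNAi. So had the other autosomes, with 1.25, 0.58 and 0.11, so the order is not particular to these stretches.

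After LmnC RNAi only chr11:120877684-121092293 (215 kb) reached 100 kb as a LAD of that map alone, with -0.40 ± 0.19 after LmnA RNAi, -0.61 ± 0.20 in the LmnC RNAi map and -0.51 ± 0.16 in the LmnB1 RNAi map. The signal there did not separate the maps beyond the SE. After LmnB1 RNAi the longest was chr11:110221636-110373209 (152 kb), with -1.34 ± 0.24, -1.29 ± 0.24 and -0.43 ± 0.23. Of the 7 stretches of at least 100 kb missing only after LmnC RNAi, the longest was chr11:112629652-112831764 (202 kb), with 0.83 ± 0.27, -1.17 ± 0.23 and 0.02 ± 0.22. The longest missing only after LmnB1 RNAi were chr11:121218950-121561522 (343 kb), with 0.27 ± 0.13, -0.50 ± 0.11 and -0.85 ± 0.13, and chr11:46875750-47211746 (336 kb), with 1.05 ± 0.15, -0.46 ± 0.13 and -1.16 ± 0.13. With all fragments, the mean of both stretches was above 0 in the LmnA RNAi map alone, although the LmnC RNAi list also called both stretches. Without single-library fragments the 343 kb stretch was below 0 in every map, with -0.29, -0.53 and -0.50. The 336 kb stretch then had 0.30, -0.38 and -0.62.

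**Figure D5:**
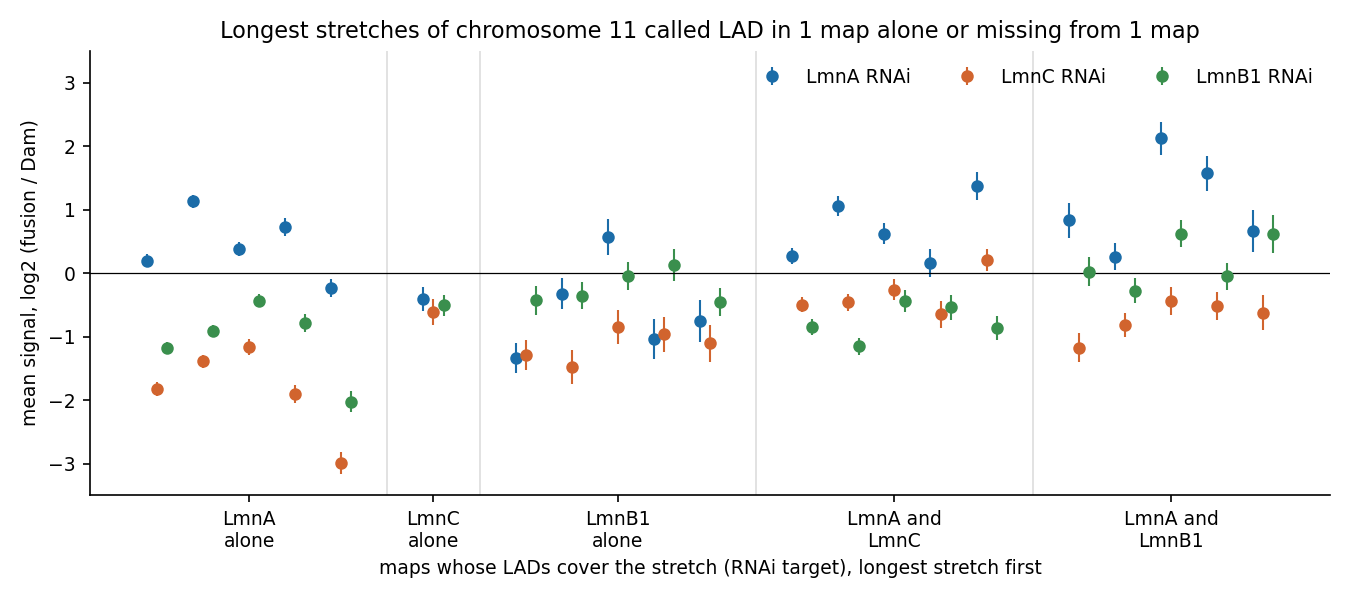
Mean log2 signal with its SE over fragments in the longest stretches of chromosome 11 that were LAD in 1 map alone or missing from 1 map alone, up to 5 of each class and 1 for LmnC RNAi alone. With all fragments, the 5 stretches of LmnA RNAi alone run from -0.23 to 1.13 after LmnA RNAi, and from -2.98 to -1.17 after LmnC RNAi.

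At the edges of the 65 domains found in every map, the LmnA RNAi LAD reached farthest out at 52 of 130 edges (40.0%), the LmnC RNAi LAD at 33, the LmnB1 RNAi LAD at 37, and 8 were shared. On the other autosomes the shares were 48.4%, 20.7% and 26.2%. The LmnA RNAi edge lay outside the LmnC RNAi edge at 76 of 130 (58.5%), by a median of 3.10 kb over all edges, against 64.7% and 5.34 kb elsewhere. LAD borders lay within 10 kb of a border of both other maps in 40 of 172 cases (23.3%) after LmnA RNAi, 38 of 170 (22.4%) in the LmnC RNAi map and 38 of 166 (22.9%) in the LmnB1 RNAi map. The corresponding shares on the other autosomes were 17.9%, 18.2% and 18.2%. Median distances to the nearest border of another map ran from 17.9 to 41.5 kb. Whether these shares differ beyond chance between chromosomes was not tested.

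Signal of a map was also read in the LADs listed for another map. Whether each list was called from its own map alone is not given in the sources used here. LmnA RNAi signal averaged 2.16 inside and -1.83 outside the LmnC RNAi LADs of chromosome 11, and 2.13 and -1.81 for the LmnB1 RNAi LADs. LmnC RNAi signal averaged 0.99 inside and -2.99 outside the LmnA RNAi LADs, and 1.29 and -2.74 for the LmnB1 RNAi LADs. LmnB1 RNAi signal averaged 1.23 and -2.12 for the LmnA RNAi LADs, and 1.51 and -1.93 for the LmnC RNAi LADs. On the other autosomes, the LmnA RNAi values in the same order were 2.17 and -1.37, and 2.15 and -1.41. The LmnC RNAi values there were 1.01 and -2.97, and 1.32 and -2.62. The LmnB1 RNAi values there were 1.32 and -2.03, and 1.62 and -1.71. LmnA RNAi signal was above 0 in 84 of 85 LmnC RNAi LADs and 80 of 83 LmnB1 RNAi LADs, whereas LmnC RNAi signal was above 0 in 59 of 86 LmnA RNAi LADs. Against their own flanks, 86 of 86 of those LmnA RNAi LADs were nonetheless higher in LmnC RNAi signal.

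The supply of GATC fragments on chromosome 11 was even. Bins held 248.7 ± 23.8 fragments (SD over 1187 bins), against 249.1 ± 27.9 on the other autosomes, and the SD was the lowest of the 19. Fragment number and signal had a Pearson's r over bins of 0.19 in the LmnA RNAi map and 0.21 in both other maps, which share depth and base composition. Among the 19 autosomes these ranked lowest, 2nd and 3rd from the lowest, with the others between 0.20 and 0.37, 0.20 and 0.41, and 0.18 and 0.41. Of the 416 bins with at least 257 fragments, 63.5%, 52.6% and 57.0% had signal above 0, against 42.7%, 33.4% and 38.3% of the 389 bins in between and 47.6%, 34.6% and 38.0% of the 382 bins with 237 or fewer. The relation was not a steady rise, since the median signal was lowest in the middle bins, with -0.67, -1.85 and -1.25. The part of fragment density in the signal was not tested.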

How the data were processed

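DamID signal was deposited on a log2 scale, 1 value per GATC fragment, with identical fragments in the 3 maps. Reads were aligned with Bowtie to mm9, per the submitters' processing notes. How reads were filtered and LADs called is not given in the sources used here. From the steps of the deposited log2 values, 1e-05 was added to each count before the log2 ratio was taken, and each map carries a constant of -0.345, 0.215 and -0.153 for LmnA, LmnC and LmnB1 RNAi. A size above 12 marked 0 reads in 1 library. A value at the constant means no reads in both libraries or equal reads, and 28.8%, 27.4% and 28.9% of chromosome 11 fragments held it.

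Bins, blocks, borders and fragment means were computed with Python 3.11.15, numpy 2.4.6 and pandas 2.3.3, with means weighted by fragment length and LAD membership taken at fragment midpoints. Starts were raised by 1 to count from 1. The interval and bin steps were tested on simulated data. Named items were the blocks of at least 2 Mb, the 5 longest stretches of each class, the 3 longest and the shortest LAD of each map, the 3 most different bins each way, and each 10 Mb window. The chromosome, rules and lists were chosen with earlier results of these data known. Genes and sequences were not placed on mm9 and are not analysed here.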

Additional observations from a re-analysis of the deposited data

How the results depend on the processing

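No paired analysis was possible because each group held 1 library. Of 130 alternative values for 41 results, 74 were rated the same as the main value, 50 moved and 6 reversed, and the cause was not tested. The rating of same allowed some change in size. It covered shared LAD blocks of at least 2 Mb, at 4 as deposited and 6 with blocks under 100 kb absorbed. It also covered the median LAD length after LmnC RNAi, at 352 kb as deposited and 465 kb without LADs under 200 kb. LAD numbers fell to 75, 66 and 63 after LmnA, LmnC and LmnB1 RNAi without LADs under 200 kb and to 77, 75 and 81 with LADs under 50 kb apart merged, each within 1.5 times of the number as deposited. LAD shares were lowest without LADs under 200 kb, at 51.8%, 43.8% and 43.9%. Median LAD length after LmnB1 RNAi was 509 kb without LADs under 200 kb. The block count fell to 166 once blocks under 100 kb were absorbed, and shared LAD blocks of 2 Mb or more numbered 7 with LADs merged.

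Without fragments read in 1 library alone, the median bin signal was -0.19 after LmnA RNAi, which reversed its sign, and -0.61 after LmnC RNAi. Bins above 0 then made up 46.7% after LmnA RNAi and 40.1% after LmnB1 RNAi. The same setting gave inside-minus-outside signal of 2.05 and 2.03 for LmnA RNAi in LADs of LmnC and LmnB1 RNAi, 1.85 and 1.89 for LmnC RNAi in LADs of LmnA and LmnB1 RNAi, and 1.52 and 1.58 for LmnB1 RNAi in LADs of LmnA and LmnC RNAi. With each fragment counted once, the median after LmnA RNAi was 0.81 and bins above 0 were 55.2%, and with 200 kb bins the median after LmnC RNAi was -0.89.

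For LmnA minus LmnC RNAi, the median difference was 0.22 without single-library fragments, and it reversed to -0.31 with centring and -0.16 with quantile normalization. Bins higher were 18.4%, 12.5%, 14.9% and, in 50 kb bins, 68.5%. Bins lower were 0.253%, 38.0%, 27.5%, 3.41% in 50 kb bins and 0.505% in 200 kb bins. For LmnA minus LmnB1 RNAi, the median was 0.10 without single-library fragments, and it reversed to -0.31 with centring and -0.046 with quantile normalization. Bins higher were 14.7%, 13.1% and 20.5%, and bins lower 5.98%, 40.2%, 23.2%, 15.8% in 50 kb bins and 8.75% in 200 kb bins. For LmnC minus LmnB1 RNAi, the median was -0.18 without single-library fragments, -0.048 with centring and reversed to 0.12 with quantile normalization. Bins higher were 0.168%, 18.96%, 22.2%, 8.13% and 3.20%, and bins lower 8.26%, 25.02% and 12.5%, in the same order of settings.

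Borders shared with both other maps numbered 62, 65 and 62 within 25 kb and 80, 81 and 81 within 50 kb, after LmnA, LmnC and LmnB1 RNAi. The correlation of fragment density with signal ran from 0.17 to 0.19 in 50 kb bins and from 0.20 to 0.23 in 200 kb bins. Precision was limited by the 1 or 2 reads that most single-library fragments held, so single bins are less firm than blocks.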

Other observations

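The maps differed in LAD share at the end of the chromosome. Beyond 120 Mb, 1.83 Mb of fragments held LADs over 31.0% after LmnA RNAi, 48.7% in the LmnC RNAi map and 9.14% in the LmnB1 RNAi map, while the mean signal of its 18 bins was -1.41, -1.66 and -1.47, and -0.91, -0.91 and -0.78 without single-library fragments. The last LAD ended at 121843147 in every map, 264 bp from the last measured base, and was 228, 683 and 169 kb long after LmnA, LmnC and LmnB1 RNAi. The first LAD started at 6600349 after LmnA and LmnC RNAi and at 6608876 after LmnB1 RNAi.

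Some deposited LADs had a mean signal not above 0 in their own map. These were 2 of 86 after LmnA RNAi, 13 of 85 in the LmnC RNAi map and 4 of 83 in the LmnB1 RNAi map. Their number on the other autosomes is not given here, so no count is read as particular to chromosome 11. Median bin signal on the chromosome was 0.18, -1.06 and -0.55 in the same maps, and its part in the counts was not tested. The lowest means of these LADs were -0.42, -0.92 and -0.46, and the longest of them were 184, 683 and 138 kb. A stretch of 54.5 kb without fragments, from 34442512 to 34497032, lay inside LADs after LmnA and LmnC RNAi and in none after LmnB1 RNAi, and a second of 50.4 kb, from 88408803 to 88459205, lay outside the LADs of every map.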
